A study of Mus musculus with 4 samples.

Results

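Gzma-negative TCRγδ intraepithelial lymphocytes (IELs) are γδ T cells of the mouse colon lining in which no transcript of granzyme A was captured. They were chosen by measured counts, from the 2 libraries of sorted TCRγδ cells, as cells with at least 1 UMI of Trdc, the constant gene of the TCR δ chain, and no UMI of Gzma. A UMI (unique molecular identifier) stands for 1 captured transcript. Cells with a summed count of 10 or more UMIs of the epithelial genes Krt8, Krt19, Pigr and Epcam were left out. This gave 866 cells, 173 in the Tcf7KO library and 693 in the Tcf7WT library, of 3399 cells in both TCRγδ libraries and 16787 in all 4 libraries of the study. The other Trdc-positive cells, 1301 in Tcf7KO and 1101 in Tcf7WT, carried at least 1 Gzma UMI and are called Gzma-positive.

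The study profiled live CD3+ CD8α+ IELs of the colon by 10x Chromium 3′ sequencing of single cells, with TCRβ cells and TCRγδ cells in separate libraries and Tcf7KO and Tcf7WT as the genotypes of each. The cell type label of the TCRγδ libraries names TCRgamma. All libraries carry the strain label E8IcreTcf7fl/fl, a floxed Tcf7 with a Cre recombinase under the E8I enhancer of Cd8a, so Tcf7KO and Tcf7WT are told apart by the genotype label alone, and whether the Tcf7WT mice carried the Cre is not stated. Because that enhancer is active in CD8α-expressing cells, the deletion is expected in these T cells and not in the whole mouse. Age, sex and the number of mice behind a library are not given in the sources used here. Each group was 1 library, so the spread between mice is unknown, no test between groups was possible, and every interval below covers counting error only.

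Natural IELs bearing a γδ receptor live between gut epithelial cells and are known for a cytotoxic programme held ready in the resting tissue. Granzymes are serine proteases stored in cytotoxic granules and delivered into target cells through pores made by perforin. TCF-1, the protein of Tcf7, is a DNA-binding factor that keeps conventional CD8 T cells in a less differentiated, memory-like state and restrains granzyme genes there. CD160 is a surface receptor of IELs and NK cells that binds HVEM on epithelium. Thy1 is a surface glycoprotein that only some γδ IELs carry.

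Cells of the Gzma-negative class were as deeply covered as the other γδ cells of their library. Their median was 4394 UMIs per cell in Tcf7KO, where Gzma-positive cells had 4359, and 3206 in Tcf7WT, where Gzma-positive cells had 3306. Median genes per cell were 2089 and 2066 for Gzma-negative and Gzma-positive Tcf7KO cells, and 1707 and 1724 for the same classes in Tcf7WT. Summed UMIs were 803955 and 5891613 for the Gzma-negative and Gzma-positive cells of Tcf7KO, and 2298548 and 3658177 for those of Tcf7WT. The Tcf7KO library was thus the deeper one per cell, and its Gzma-negative class had the fewest UMIs of all 4 classes.

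At the edges of the rule, 1 Gzma-negative cell in Tcf7KO and 46 in Tcf7WT had exactly 1 Trdc UMI, and 3 Gzma-free cells in Tcf7KO and 21 in Tcf7WT were left out for having none. Epithelial UMIs reached 8 in a Gzma-negative Tcf7KO cell and 7 in a Tcf7WT one, and 20 cells of Tcf7KO and 18 of Tcf7WT were at or over the limit. Trdc was found in 97.8% of all cells of the Tcf7KO library and 95.1% of the Tcf7WT library, against 2.33% and 2.28% of the TCRβ libraries of the same genotypes. Of the Gzma-negative cells, 1 in Tcf7KO and 2 in Tcf7WT had a barcode that also occurs in another library.

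The T cell identity of these cells was checked with markers outside the rule. All 4 T cell markers (Cd3e, Cd3d, Cd3g and Cd8a) were detected, and 100% of Gzma-negative cells had a UMI of at least 1 of them in both libraries. Markers of αβ T cells were also present. They summed to 2603 CPM (UMIs of a gene per 1000000 UMIs of a class) in Gzma-negative and 2514 CPM in Gzma-positive Tcf7KO cells, and to 2506 and 2231 CPM in the Gzma-negative and Gzma-positive cells of Tcf7WT. Nearly all of that sum was the constant genes Trac, Trbc1 and Trbc2. Cd8b1, the β chain of the CD8αβ coreceptor, stood at 1.24 CPM in Gzma-negative and 0.34 CPM in Gzma-positive Tcf7KO cells, against 1.31 and 8.20 CPM in the same classes of Tcf7WT. Its level in Gzma-negative cells rested on 1 UMI in Tcf7KO and 3 UMIs in Tcf7WT.

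Epithelial markers were detected 9 of 9 and summed to 203 CPM in Gzma-negative and 265 CPM in Gzma-positive Tcf7KO cells, against 258 and 237 CPM in those of Tcf7WT. Of 5 myeloid markers 2 were listed, Itgax and Cst3, with sums of 37.3 and 32.6 CPM in Gzma-negative and Gzma-positive Tcf7KO cells and of 32.2 and 73.3 CPM in those of Tcf7WT. Of 5 B or plasma cell markers 1 was listed, at 21.1 to 39.9 CPM over the 4 classes, and stromal markers summed to 9.57 to 22.2 CPM. Markers of naive T cells, mostly Klf2, summed to 103 CPM in Gzma-negative and 85.2 CPM in Gzma-positive Tcf7KO cells, and to 163 and 132 CPM in those of Tcf7WT. Of 8 type 17 γδ markers 3 were listed in Tcf7KO and 1 in Tcf7WT, and Maf, a factor of that and other T cell lineages, accounted for most of the sums of 23.6 CPM in Gzma-negative and 15.96 CPM in Gzma-positive Tcf7KO cells and all of those of 9.57 and 5.19 CPM in Tcf7WT. The part of other cell types in the differences below was not tested.

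Gzma-negative cells made up 11.7% of Trdc-positive cells in Tcf7KO (173 of 1474, exact binomial interval 10.1 to 13.5%) and 38.6% in Tcf7WT (693 of 1794, 36.4 to 40.9%). These shares come from the counts that the rule used and are given as a description of the 2 libraries. A cell read at low depth can miss a transcript, and the Tcf7KO library was the deeper one. When each cell was first thinned to 1500 UMIs, dropping shallower cells, the shares were 16.4% in Tcf7KO (14.4 to 18.5%) and 42.3% in Tcf7WT (39.8 to 44.9%), and among cells of 1500 UMIs or more at their own depth they were 11.8% and 37.8%.

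The Gzma-positive cells covered a wide range of counts. In Tcf7KO, 66 cells had 1 Gzma UMI, 53 had 2 to 5, 66 had 6 to 20, 492 had 21 to 100 and 624 had over 100. In Tcf7WT the same bins held 99, 45, 127, 553 and 277 cells. The bin of 1 UMI lies just outside the rule, with 66 cells beside 173 without Gzma in Tcf7KO and 99 beside 693 in Tcf7WT. Median Gzma among Gzma-positive cells was 97 UMIs in Tcf7KO and 56 UMIs in Tcf7WT. A Gzma UMI was found in 55.0% of the left-out epithelial cells of Tcf7KO (median depth 22219 UMIs), at 33.7 CPM. In Tcf7WT it was found in 16.7% of them (2559 UMIs), at 39.2 CPM. Of the left-out cells, 3 of 20 in Tcf7KO and 1 of 18 in Tcf7WT also had a Trdc UMI. Stray transcripts and doublets with T cells were thus not told apart. How many cells with 1 Gzma UMI hold a stray transcript was not tested.

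**Figure D1:**
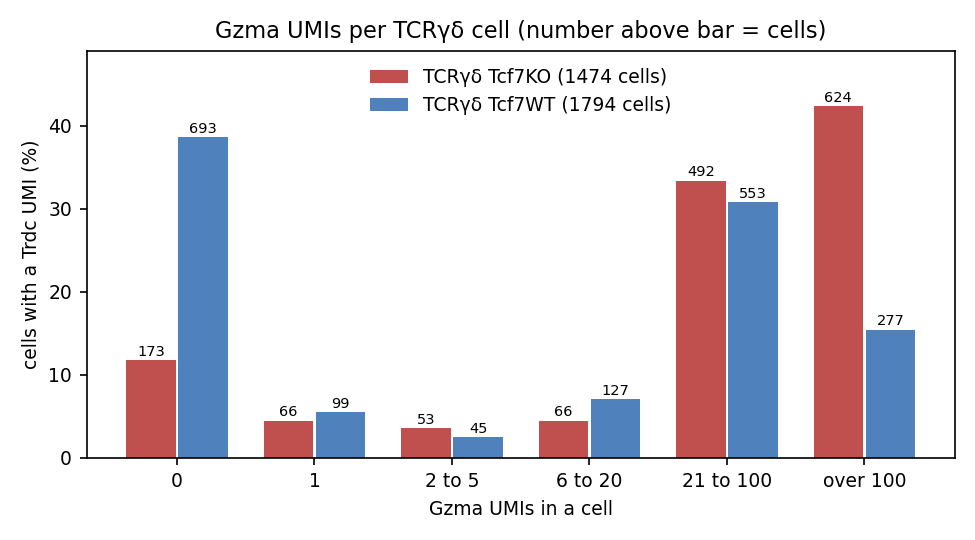
Share of Trdc-positive cells (y axis, percent) by number of Gzma UMIs per cell (x axis, bins), for Tcf7KO and Tcf7WT, with the number of cells above each bar. The zero class holds 11.7% of Tcf7KO and 38.6% of Tcf7WT cells, and the bin over 100 UMIs holds 42.3% and 15.4%.

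Tcf7 itself was read first, since it is the deleted gene. Gzma-negative cells had 44.8 CPM in Tcf7KO (36 UMIs, Poisson interval 31.4 to 62.0) and 94.4 CPM in Tcf7WT (217 UMIs, 82.3 to 108), a log2 ratio of -1.08 (-1.63 to -0.56). Gzma-positive cells had 11.4 CPM in Tcf7KO and 15.6 CPM in Tcf7WT, a log2 ratio of -0.45 (-0.99 to 0.08). Tcf7 transcripts were therefore still captured from the library labelled Tcf7KO, and the highest single Gzma-negative cell there held 3 UMIs. The labels do not say which part of the gene is floxed, and a 3′ count can come from outside the deleted part, so these levels do not check the genotype label.

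Over the Gzma bins, from no Gzma to over 100 UMIs, Tcf7 stood at 44.8, 27.0, 44.6, 36.1, 10.3 and 6.30 CPM in Tcf7KO. In Tcf7WT the same bins read 94.4, 87.3, 41.9, 37.0, 4.86 and 0.80 CPM. Cd160 stood at 536, 536, 446, 313, 175 and 184 CPM in Tcf7KO bins, and at 1000, 929, 930, 481, 300.3 and 196 CPM in Tcf7WT bins. Both genes were lowest in the bins of over 20 Gzma UMIs in both libraries. Gzmb took the opposite course, at 4181 CPM without Gzma and 10381 CPM over 100 UMIs in Tcf7KO, and at 2112 and 9925 CPM in the same Tcf7WT bins. The bins of 2 to 5 and 6 to 20 UMIs were shallower in Tcf7WT, with medians of 2168 and 1737 UMIs per cell. Because Gzma counts toward the total, each CPM in a Gzma-rich bin is lowered by the few percent of UMIs that Gzma takes.

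**Figure D2:**
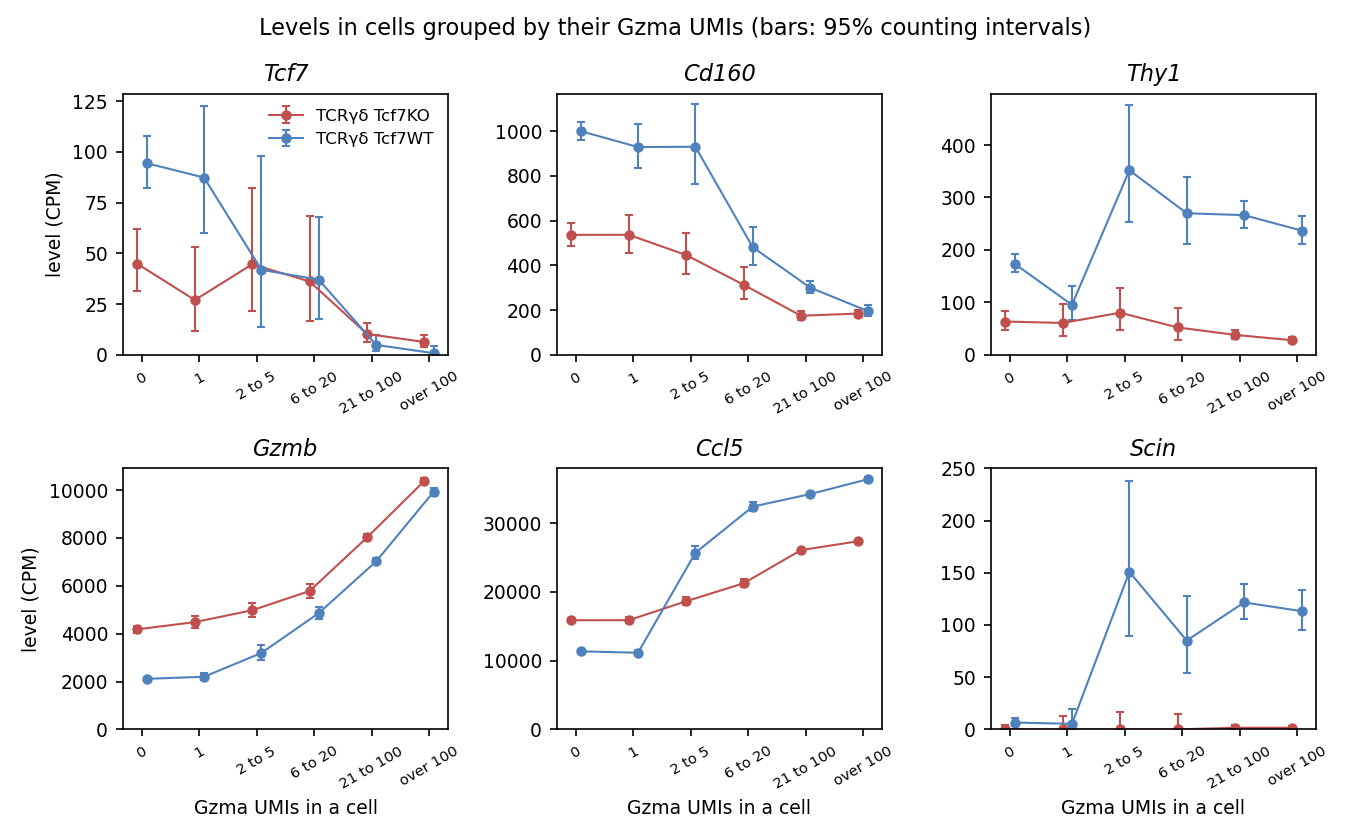
Level of single genes (y axes, CPM) by Gzma UMIs per cell (x axes, bins) in Tcf7KO and Tcf7WT, with Poisson intervals. Tcf7 and Cd160 are high at no Gzma and low over 20 Gzma UMIs, while Gzmb and Ccl5 run the other way.

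Compared with Gzma-positive cells of the same library, Gzma-negative cells carried more Id3, Tcf7, Cd160, Capn3 and Xcl1 and less Ccl4, Ccl3, Gzmb, Gzmc and Ccl5, in both genotypes. The cells were split by a measured gene, so genes that vary with Gzma from cell to cell must differ, and the following is a description with no test. Genes were read where the pooled level gave 30 or more UMIs in the smaller class. In Tcf7KO 4617 genes were measured and 165 (3.57%) stood 1.5-fold or more apart, 64 higher (1.39%) and 101 lower (2.19%) in Gzma-negative cells. In Tcf7WT 7870 were measured and 508 (6.45%) stood apart, 282 higher (3.58%) and 226 lower (2.87%). TMM scaling gave 46 higher and 124 lower in Tcf7KO and 218 higher and 278 lower in Tcf7WT, and DESeq2 scaling 46 and 118 in Tcf7KO and 208 and 297 in Tcf7WT, so in Tcf7WT the balance of higher against lower turns with the scaling, while in Tcf7KO lower genes were the more numerous under each of these. The minimum was set on the pooled level, to which Gzma-positive cells gave more UMIs. A gene found mainly in those cells passed at a lower CPM, and scaling does not change that. Nothing is therefore read from the excess of lower genes. The median log2 ratio of all measured genes was 0.04 in both libraries. Called at the same threshold of 1.5-fold, more genes were measurable in Tcf7WT because its Gzma-negative class had more UMIs.

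Id3 ranked first among the higher genes in both libraries, and Tcf7 ranked next in Tcf7WT. Id3, an inhibitor of E proteins that marks memory precursors among CD8 T cells, stood at 114 CPM in Gzma-negative and 38.02 CPM in Gzma-positive Tcf7KO cells, and at 221 and 27.9 CPM in the same classes of Tcf7WT. Its log2 ratios were 1.59 (1.22 to 1.95) in Tcf7KO and 2.99 (2.68 to 3.31) in Tcf7WT. Id3 was also high in the left-out epithelial cells, at 148 CPM in Tcf7KO and 294 CPM in Tcf7WT, beside epithelial marker sums that were close between the classes. For Tcf7 the log2 ratio was 1.98 (1.35 to 2.58) in Tcf7KO, below the minimum for the ranking, and 2.60 (2.17 to 3.05) in Tcf7WT. Satb1, a chromatin organiser of T cells, had 56.0 and 53.6 CPM in Gzma-negative and Gzma-positive Tcf7KO cells, and 46.6 and 13.1 CPM in those of Tcf7WT. Of the quiescence and memory list, 1 of 9 measured genes was higher and 0 lower in Tcf7KO, and 3 of 11 were higher and 0 lower in Tcf7WT, with a list median of 0.02 in Tcf7KO and 0.26 in Tcf7WT. Klf2, a factor of recirculating T cells, was within 1.5-fold, with a log2 ratio of 0.16 (-0.21 to 0.51) in Tcf7KO and one of 0.31 (0.11 to 0.51) in Tcf7WT. Lef1, the relative of Tcf7, rested on 6 UMIs in Gzma-negative Tcf7KO cells and 3 UMIs in those of Tcf7WT.

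Effector factors were mixed. Prdm1, which encodes BLIMP-1, a driver of effector differentiation, stood at 43.5 CPM in Gzma-negative and 69.8 CPM in Gzma-positive Tcf7KO cells, and at 38.3 and 111 CPM in those of Tcf7WT, for log2 ratios of -0.68 (-1.22 to -0.18) and -1.53 (-1.88 to -1.20). Zeb2, another factor of terminal effectors, had a log2 ratio of -1.53 (-2.36 to -0.79) in Tcf7WT. Ikzf2, the gene of Helios, was higher in Tcf7WT at 836 CPM in Gzma-negative and 546 CPM in Gzma-positive cells. Over the effector and residency factors as a list, which also holds Id3, 1 of 13 measured genes was higher and 1 lower in Tcf7KO, and 2 of 16 were higher and 2 lower in Tcf7WT.

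Gzma-negative cells were not free of other granule proteins. Gzmb, the granzyme that cleaves caspases, stood at 4181 CPM in Gzma-negative and 8902 CPM in Gzma-positive Tcf7KO cells, and at 2112 and 7226 CPM in those of Tcf7WT. At least 1 Gzmb UMI was found in 80.3% of Gzma-negative and 97.4% of Gzma-positive cells of Tcf7KO, and in 59.3% and 95.7% of those of Tcf7WT. After thinning to 1500 UMIs these shares were 70.9% and 96.0% in Tcf7KO, and 51.3% and 94.3% in Tcf7WT, while left-out epithelial cells had Gzmb in 30% in Tcf7KO and 22.2% in Tcf7WT before thinning and in 5% and 9.09% after it. Gzmb was therefore found in a larger share of Gzma-negative than of left-out epithelial cells in both libraries. The left-out cells after thinning numbered only 20 in Tcf7KO and 11 in Tcf7WT.

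Other lytic genes were lower too. Gzmc stood at 26.1 CPM in Gzma-negative and 102 CPM in Gzma-positive Tcf7KO cells, and at 16.1 and 66.7 CPM in those of Tcf7WT. Prf1, the gene of perforin, had 8 UMIs in Gzma-negative Tcf7KO cells and 17 UMIs in those of Tcf7WT, with a log2 ratio of -2.08 (-2.90 to -1.33) in Tcf7WT. Gzmk was nearly confined to Gzma-positive Tcf7WT cells, at 0.87 CPM (2 UMIs) in Gzma-negative and 52.5 CPM (192 UMIs) in Gzma-positive cells, and it had 0 UMIs in Gzma-negative and 6 UMIs in Gzma-positive Tcf7KO cells. Of the granule list, 0 of 12 measured genes were higher and 2 lower in Tcf7KO, and 0 of 17 higher and 6 lower in Tcf7WT, with list medians of -0.07 and -0.18, so most granule genes lay within 1.5-fold.

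Chemokines split by kind. Ccl4 and Ccl3, which attract other leukocytes, were low: Ccl4 stood at 113 CPM in Gzma-negative and 612 CPM in Gzma-positive Tcf7KO cells, and at 137 and 910 CPM in those of Tcf7WT. Ccl3 had a log2 ratio of -1.37 (-1.81 to -0.95) in Tcf7KO and one of -2.13 (-2.42 to -1.84) in Tcf7WT. Ccl5, a granule-stored chemokine, stood at 15874 and 25765 CPM in Gzma-negative and Gzma-positive Tcf7KO cells, and at 11345 and 32152 CPM in those of Tcf7WT. Xcl1, the ligand of XCR1 on cross-presenting dendritic cells, was the exception, at 3416 CPM in Gzma-negative and 1823 CPM in Gzma-positive Tcf7KO cells, and at 2616 and 1121 CPM in those of Tcf7WT. Counted over the list, 1 of 4 measured chemokines was higher and 3 lower in Tcf7KO, and 1 of 5 higher and 3 lower in Tcf7WT.

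Of effector cytokines and death ligands, 1 of 5 measured genes was higher and 0 lower in Tcf7KO, and 3 of 8 were higher and 2 lower in Tcf7WT. Ifng, the interferon γ gene, stood at 16.2 CPM in Gzma-negative and 32.8 CPM in Gzma-positive Tcf7KO cells, too few UMIs to count there, and at 59.6 and 180 CPM in those of Tcf7WT, while Ltb, the lymphotoxin β gene, was higher with log2 ratios of 0.83 in Tcf7KO and 0.86 in Tcf7WT. Csf2, which encodes GM-CSF, had a log2 ratio of 1.45 (0.93 to 1.99) in Tcf7WT on 86 and 50 UMIs. Fasl, a death ligand, was lower in Tcf7WT at -0.72 (-0.93 to -0.52).

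Cd160 stood at 536 CPM in Gzma-negative and 214 CPM in Gzma-positive Tcf7KO cells, and at 1000 and 364 CPM in those of Tcf7WT, with log2 ratios of 1.32 (1.16 to 1.48) and 1.46 (1.36 to 1.56). Cells with a Cd160 UMI were 69.9% of Gzma-negative and 44.8% of Gzma-positive Tcf7KO cells, and 86.1% and 45.6% of those of Tcf7WT. Thinned to 1500 UMIs, these were 45.3% and 23.2% in Tcf7KO, and 73.5% and 32.0% in Tcf7WT, against 5% and 5.56% of unthinned left-out epithelial cells of Tcf7KO and Tcf7WT. Cd160 thus marked Gzma-negative cells in both libraries, though many Gzma-positive cells also had it. Among other NK-type receptors, Klra7, a Ly49 receptor gene, had a log2 ratio of 1.42 (1.10 to 1.72) in Tcf7KO and one of 1.03 (0.69 to 1.38) in Tcf7WT. Klra5 stood at 784 and 791 CPM in the Gzma-negative and Gzma-positive cells of Tcf7KO, but at 652 and 259 CPM in those of Tcf7WT. The Ly49 genes are near-identical copies of each other, so their split counts are uncertain. Lilrb4a, an inhibitory receptor gene, was lower at -0.59 in Tcf7KO and -1.35 in Tcf7WT.

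Thy1, another marker given for these cells, did not mark them in Tcf7WT. It stood at 63.4 CPM in Gzma-negative and 35.8 CPM in Gzma-positive Tcf7KO cells, and at 174 and 242 CPM in those of Tcf7WT, with log2 ratios of 0.82 (0.35 to 1.27) and -0.48 (-0.65 to -0.31). A Thy1 UMI was found in 13.9% and 8.69% of the Gzma-negative and Gzma-positive cells of Tcf7KO, and in 28.9% and 39.7% of those of Tcf7WT. In Tcf7WT, then, Thy1 was lower in the Gzma-negative class, and in Tcf7KO it was low in both classes.

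The Gzma gene lies on the minus strand at chr13:113093825-113100981 and Cd160 on the minus strand at chr3:96798763-96829351 in GRCm38. Tcf7, also on the minus strand, is at chr11:52252371-52283014. Promoter windows of Gzma and Cd160 are printed because Gzma divides the cells and Cd160 lies on the opposite side of that division in both libraries, and because Tcf7 encodes a DNA-binding factor. Each window runs from 250 bases before to 50 bases after a RefSeq start in GRCm38.p6, on the gene's strand. Capitals mark the letters CTTTGA, a TCF/LEF core, and TGTGGT, a RUNX core, on either strand, so that TCAAAG and ACCACA mark the opposite one. The windows are chr13:113100932-113101231 for Gzma, chr3:96829302-96829601 for the upstream start of Cd160 and chr3:96814472-96814771 for its downstream start.
Gzma: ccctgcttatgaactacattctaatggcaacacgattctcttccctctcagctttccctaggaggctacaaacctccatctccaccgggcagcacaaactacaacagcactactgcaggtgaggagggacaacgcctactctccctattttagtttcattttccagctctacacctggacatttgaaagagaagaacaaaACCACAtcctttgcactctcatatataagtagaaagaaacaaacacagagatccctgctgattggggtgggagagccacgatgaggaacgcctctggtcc
Cd160, upstream start: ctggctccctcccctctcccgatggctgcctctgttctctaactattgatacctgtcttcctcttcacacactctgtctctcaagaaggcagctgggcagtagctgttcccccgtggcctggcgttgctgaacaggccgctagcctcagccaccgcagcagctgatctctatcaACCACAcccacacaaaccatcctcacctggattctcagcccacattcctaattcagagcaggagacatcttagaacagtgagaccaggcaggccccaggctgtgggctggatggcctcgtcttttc
Cd160, downstream start: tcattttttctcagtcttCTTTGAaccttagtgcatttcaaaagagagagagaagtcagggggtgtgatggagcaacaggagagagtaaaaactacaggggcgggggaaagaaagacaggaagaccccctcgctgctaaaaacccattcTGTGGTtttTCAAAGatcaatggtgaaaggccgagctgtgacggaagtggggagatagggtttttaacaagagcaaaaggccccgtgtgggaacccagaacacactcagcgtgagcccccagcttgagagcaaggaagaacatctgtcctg
CTTTGA occurred 0 times in the Gzma window and 0 and 2 times in the upstream and downstream windows of Cd160, and TGTGGT occurred 1 time in each. Of 32851 promoter windows of this length in the RefSeq set, 5257 held CTTTGA and 5506 (16.8%) held TGTGGT, so such matches are common. The windows of Id3 and Tcf7, not printed, held 0 matches of either, and both genes were higher in Gzma-negative Tcf7WT cells as Cd160 was. A match is a description of the letters and not a binding site.

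Homing receptors were lower in Gzma-negative cells in part of the list in Tcf7WT. Cxcr6, which retains T cells in tissue, stood at 255 CPM in Gzma-negative and 350.0 CPM in Gzma-positive Tcf7KO cells, and at 71.8 and 239 CPM in those of Tcf7WT, past 1.5-fold in Tcf7WT alone. Adgre5, the gene of the adhesion receptor CD97, was lower in both, at -1.45 in Tcf7KO and -2.46 in Tcf7WT. Ccr9, a gut homing receptor, was higher in Tcf7KO at 185 CPM in Gzma-negative and 110 CPM in Gzma-positive cells. Over the homing list, 1 of 7 measured genes was higher and 1 lower in Tcf7KO, and 0 of 9 higher and 4 lower in Tcf7WT. In the integrin and residency list, Crtam, an adhesion receptor, was higher at 0.90 in Tcf7KO and 0.76 in Tcf7WT, and Itgb1 and Ahr, the aryl hydrocarbon receptor that IELs depend on, were higher in Tcf7WT at 1.12 and 0.62.

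Kit, the stem cell factor receptor, stood at 167 CPM in Gzma-negative and 139 CPM in Gzma-positive Tcf7KO cells, and at 292 and 110 CPM in those of Tcf7WT. Kit and Gata3 were the only listed markers of the innate lymphoid and NK set, and Gata3 was level at 127 and 126 CPM in the Gzma-negative and Gzma-positive cells of Tcf7WT. Tnfrsf26, a decoy receptor of the TNF family, had a log2 ratio of 2.29 (1.63 to 3.01) in Tcf7WT on 77 and 25 UMIs. In the list of proximal TCR signalling genes, 0 of 14 measured genes were apart in Tcf7KO. That list does not hold Lat, an adaptor of TCR signalling counted with the adaptors, which had a log2 ratio of 0.99 there. In Tcf7WT 2 of 19 genes of the same list were higher and 2 lower: the adhesion receptor Cd2 at 2.04 and the adaptor Lax1 at 0.64, and Cd6 at -3.46 (-4.81 to -2.38) and Themis at -1.53. Checkpoint receptors included Havcr2, the gene of TIM-3, which had 3.05 and 21.6 CPM in the Gzma-negative and Gzma-positive cells of Tcf7WT.

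Scin and Mt2 were low in Gzma-negative cells of Tcf7WT and scarce throughout Tcf7KO. Scin, which encodes the actin-severing protein scinderin, stood at 6.53 CPM in Gzma-negative and 105 CPM in Gzma-positive Tcf7WT cells, for a log2 ratio of -4.01 (-4.86 to -3.27). In Tcf7KO it had 0 UMIs in Gzma-negative and 8 UMIs in Gzma-positive cells. Mt2, a metallothionein, had a log2 ratio of -3.12 (-3.99 to -2.37) in Tcf7WT. Of the MHC class II list, 1 of 6 measured genes was higher in Tcf7WT, H2-Eb2 at 0.59, and 3 were lower, and 0 were measured in Tcf7KO. H2-Ab1 and H2-Eb1, which present peptide to CD4 T cells, were lower at -1.16 and -1.12, whereas Cd74, the invariant chain that accompanies them, was level at 56.6 CPM in Gzma-negative and 59.6 CPM in Gzma-positive cells. The myeloid marker Itgax was also lower there, at 26.5 CPM in Gzma-negative and 69.2 CPM in Gzma-positive cells, and its part in the class II values was not tested. In the S100 and galectin list, 0 of 13 measured genes were higher and 4 lower in Tcf7WT, among them Lgals1 at -1.25 and Emp3 at -1.04, and 0 of 11 stood apart in Tcf7KO.

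NK-type receptors as a list had 2 of 9 measured genes higher and 1 lower in Tcf7KO, and 3 of 11 higher and 1 lower in Tcf7WT. Integrin and residency genes had 2 of 18 higher and 1 lower in Tcf7KO, and 3 of 19 higher and 3 lower in Tcf7WT. Immediate-early genes, which T cells switch on within minutes of a stimulus, had 2 of 22 higher in Tcf7KO, Egr1 at 0.94 and Dusp2 at 0.64, and 1 of 24 lower in Tcf7WT, Dusp2 at -1.12. Among adaptors, Lat stood at 73.4 CPM in Gzma-negative and 36.8 CPM in Gzma-positive Tcf7KO cells, and Grap2, an adaptor of the same signalling complex, at 33.9 and 60.7 CPM in those of Tcf7WT. Dusp2 in Tcf7KO turned to -0.53 when cells were thinned to 1500 UMIs before the rule, so its direction there is uncertain.

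Many lists had few or no members apart between the classes. Over all measured genes only 3.57% stood apart in Tcf7KO and 6.45% in Tcf7WT, so low counts say little about lists this short. Glycolysis had 0 of 10 genes apart in Tcf7KO and 1 of 14 lower in Tcf7WT, and the respiratory chain had 0 of 25 apart in Tcf7KO and 1 of 26 higher in Tcf7WT. No measured member of the GIMAP, MHC class I, interferon or BCL-2 lists was 1.5-fold apart in either library. Cell cycle genes gave 6 of 10 higher and 1 lower in Tcf7KO and 5 of 13 higher and 0 lower in Tcf7WT. A UMI of Mki67 was found in 3.47% of Gzma-negative and 3.23% of Gzma-positive Tcf7KO cells, and in 4.04% and 4.0% of those of Tcf7WT, and without cells that had Mki67 or Top2a the list median in Tcf7WT was -0.11. A single Gzma-negative Tcf7KO cell held 31 of the 55 Stmn1 UMIs of its class. The cell cycle counts thus rest on few cells.

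Across the 4567 genes measured in both libraries, the ratios of Gzma-negative to Gzma-positive cells in Tcf7KO and in Tcf7WT correlated with r = 0.42 (Pearson) and rho = 0.33 (Spearman), and 61.7% shared their sign. These are descriptions across genes, which are not independent, and both ratios carry the same split on Gzma. Of these genes 62 were 1.5-fold higher in Tcf7KO and 91 in Tcf7WT, and 19 were in both sets. Another 91 were lower in Tcf7KO and 69 in Tcf7WT, and 24 were in both. Of the Tcf7WT sets, 0 of the higher genes and 2 of the lower ones were past 1.5-fold the other way in Tcf7KO.

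**Figure D3:**
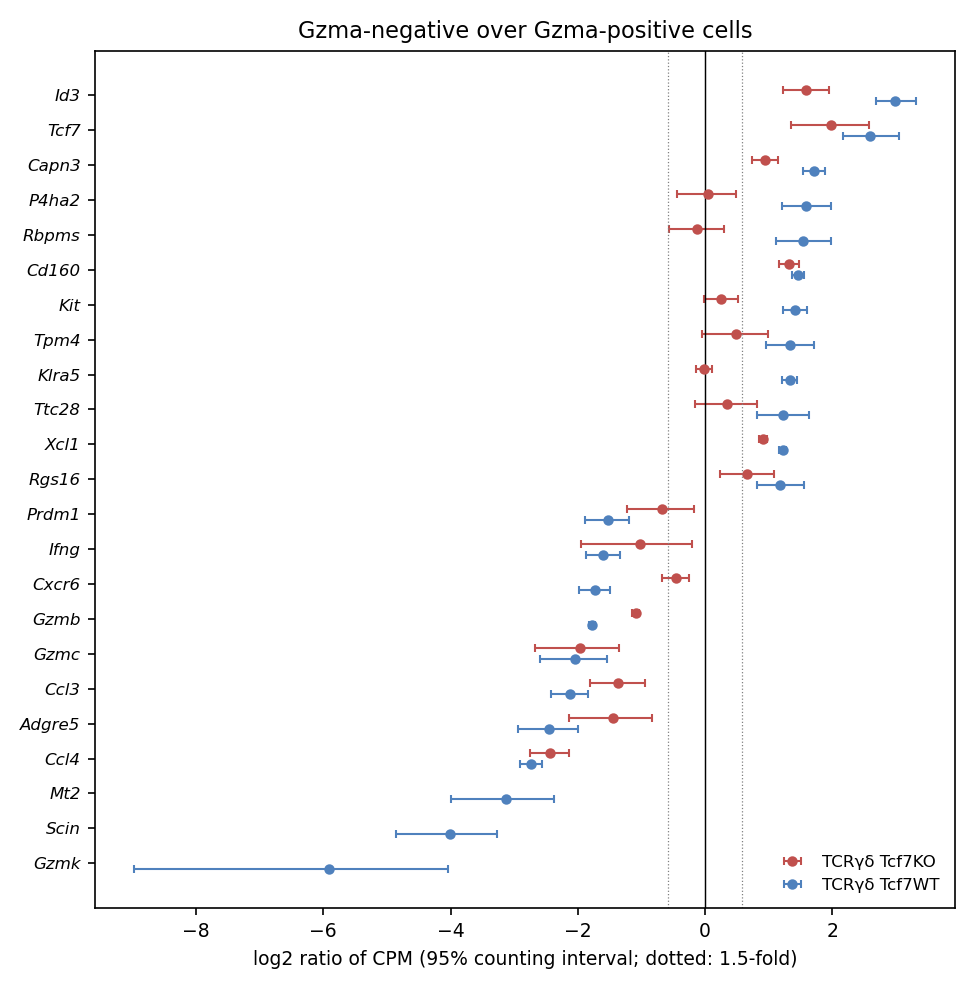
Log2 ratio of Gzma-negative to Gzma-positive cells (x axis) for named genes in Tcf7KO and Tcf7WT, with exact conditional intervals. Id3, Capn3, Cd160 and Xcl1 lie right of zero and Ccl4, Gzmc, Ccl3 and Gzmb left of it in both libraries, while Klra5 and Kit are higher in Tcf7WT and near zero in Tcf7KO.

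Within the Gzma-negative class, Tcf7KO cells were compared with Tcf7WT cells. Gzma-negative Tcf7KO cells carried more Cxcr6, Ccrl2, Errfi1 and Gzmb and less Thy1, Ifng, Cd160, Id3 and Tcf7 than Gzma-negative Tcf7WT cells. Of 4761 measured genes, 263 (5.52%) stood 1.5-fold or more apart, 88 higher (1.85%) and 175 lower (3.68%) in Tcf7KO. The minimum was set on the pooled level, to which Gzma-negative Tcf7WT cells gave more UMIs, so a gene found mainly in Tcf7WT passed at a lower CPM than one found mainly in Tcf7KO, and nothing is read from the excess of lower genes. In the same way Gzma-positive cells weighed more in the comparisons between classes. The split was 105 higher and 145 lower with TMM scaling and 117 and 137 with DESeq2 scaling. In Gzma-positive cells 666 of 8760 genes (7.60%) were apart between the same libraries, 269 higher (3.07%) and 397 lower (4.53%). These values compare 1 library with 1 library, and genotype, mouse and library preparation cannot be told apart.

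Cxcr6 led the higher genes, at 255 CPM in Gzma-negative Tcf7KO cells (205 UMIs) and 71.8 CPM in Gzma-negative Tcf7WT cells (165 UMIs), for a log2 ratio of 1.83 (1.53 to 2.13). In Gzma-positive cells its ratio was 0.55 (0.44 to 0.67). It was found in 54.3% of Gzma-negative Tcf7KO and 15.2% of Gzma-negative Tcf7WT cells, and in 26.2% and 8.61% after thinning. The ratio was thus larger among Gzma-negative cells, and no test of that difference was possible. Ccrl2, a receptor that binds chemerin, was higher at 1.79 (1.29 to 2.30), Errfi1, a feedback inhibitor of EGF receptors, at 1.66 (1.28 to 2.05), and Tmem273, a transmembrane protein gene, at 1.49. The signalling adaptor Traf4 had 90.8 CPM in Gzma-negative Tcf7KO and 39.2 CPM in Gzma-negative Tcf7WT cells. Pim3, a survival kinase, Fosl2, an AP-1 factor, Ier5l and the actin-capping gene Capg had ratios of 1.13, 1.05, 1.12 and 1.05, with 0.56, 0.66, 1.40 and 0.58 in Gzma-positive cells.

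Gzmb was higher at 4181 CPM in Gzma-negative Tcf7KO and 2112 CPM in Gzma-negative Tcf7WT cells, a log2 ratio of 0.99 (0.92 to 1.05), against 0.30 (0.28 to 0.32) in Gzma-positive cells. Of the granule list, 2 of 11 measured genes were higher, the other being the granzyme inhibitor Serpinb6b at 0.80, and 0 were lower. Il2rb, the β chain shared by the IL-2 and IL-15 receptors, was higher at 0.69 (0.52 to 0.87), with a like ratio of 0.73 in Gzma-positive cells. Rgs1, a brake on chemokine receptor signalling, was higher at 0.62, and the costimulatory receptor Tnfrsf9 and the checkpoint receptor Ctla4 at 0.64 and 0.87. Over all Trdc-positive cells, Tnfrsf9 had a Tcf7KO to Tcf7WT log2 ratio of 1.30 and Ctla4 one of -0.24. Ctla4 was thus not higher in Tcf7KO over both classes together, and Tnfrsf9 had a larger ratio over both classes than in Gzma-negative cells. Chemokines lay within 1.5-fold in all 4 measured members, with Ccl5 at 0.48 and Ccl4 at -0.27.

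Lower genes were led by Cd74, with 1 UMI in Gzma-negative Tcf7KO cells and 130 UMIs in Gzma-negative Tcf7WT cells, for a log2 ratio of -5.51 (-10.82 to -3.00). In Gzma-positive cells it had 9 UMIs in Tcf7KO and 218 UMIs in Tcf7WT. Thy1 stood at 63.4 CPM in Gzma-negative Tcf7KO and 174 CPM in Gzma-negative Tcf7WT cells, at -1.45 (-1.90 to -1.03), and had a ratio of -2.75 (-2.98 to -2.54) in Gzma-positive cells. Ifng was lower at -1.88 (-2.83 to -1.06), on 13 UMIs in Gzma-negative Tcf7KO and 137 UMIs in Gzma-negative Tcf7WT cells. Scin and Mt2 had 0 UMIs in Gzma-negative Tcf7KO cells, which against a floor of 3 UMIs for the class makes each at least 1.75-fold lower than its 6.53 CPM in Gzma-negative Tcf7WT cells. Cd74, Scin and Mt2 were under 10 CPM in both classes of Tcf7KO.

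Id3 was lower at 114 CPM in Gzma-negative Tcf7KO and 221 CPM in Gzma-negative Tcf7WT cells, a log2 ratio of -0.95 (-1.29 to -0.63), while in Gzma-positive cells it had a ratio of 0.45 (0.10 to 0.80). Cd160 was lower in both classes, at -0.90 (-1.05 to -0.75) in Gzma-negative and -0.76 (-0.88 to -0.65) in Gzma-positive cells. Kit was lower in Gzma-negative cells at -0.81 (-1.09 to -0.54) and higher in Gzma-positive cells at 0.35 (0.17 to 0.52). The quiescence and memory list had 0 of 10 measured genes higher and 3 lower: Tcf7, Id3 and Klf2, the last at -0.79. Cd44, an activation and adhesion receptor, was lower at -1.12 (-1.69 to -0.59), as were Dtx1, a Notch target, at -1.23 and Sh3kbp1, an endocytic adaptor, at -1.17. Lgals1 had 12.4 CPM in Gzma-negative Tcf7KO and 46.1 CPM in Gzma-negative Tcf7WT cells. Immediate-early genes split, with 3 of 22 higher and 3 lower, among them Ier5l at 1.12 and Fosb at -0.78. Of adaptors 1 of 8 was higher, Sh2d2a at 0.68, and 0 were lower. None of the 12 measured genes of the Wnt and TCF partner list was apart, nor any of 26 respiratory chain genes. Over all genes measured between these cells 5.52% stood apart, so such counts say little about lists this short.

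**Figure D4:**
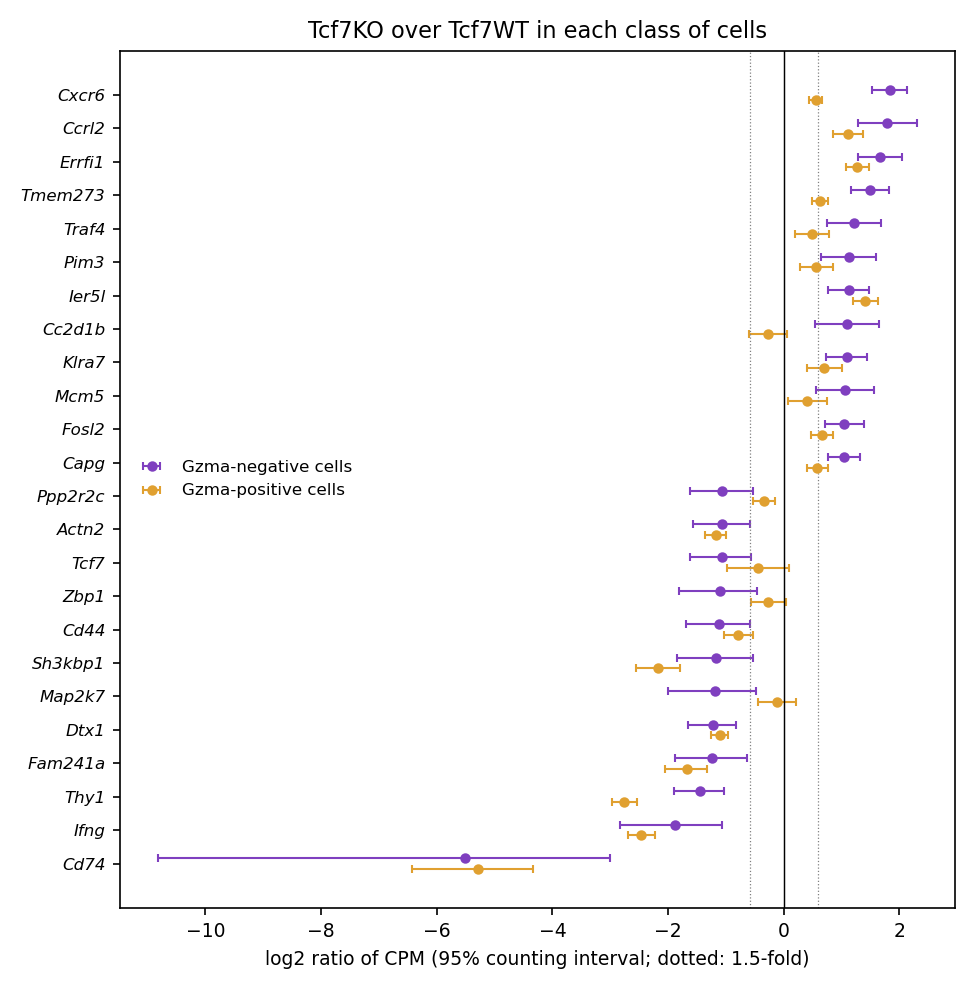
Log2 ratio of Tcf7KO to Tcf7WT (x axis) for named genes in Gzma-negative and Gzma-positive cells, with exact conditional intervals. Cxcr6 lies at 1.83 in Gzma-negative and 0.55 in Gzma-positive cells, and Thy1 at -1.45 and -2.75.

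Gzma-negative cells were fewer in Tcf7KO, so ratios between genotypes over all Trdc-positive cells were also computed with the classes weighted alike. Gzma-negative cells supplied 12.01% of the UMIs of Trdc-positive cells in Tcf7KO and 38.6% in Tcf7WT. Tcf7 over all these cells was 15.4 CPM in Tcf7KO and 46.0 CPM in Tcf7WT, a log2 ratio of -1.58. Weighting the classes of Tcf7KO as in Tcf7WT put it at -0.92. For Cd160 the ratio of -1.27 became -0.85, for Id3 -1.12 became -0.60 and for Gzmb 0.67 became 0.43. For Thy1 -2.46 became -2.21 and for Cxcr6 0.96 became 0.85. Klra5 had 0.94 both ways. How far a gene moves under this weighting follows from its ratio between the classes of Tcf7KO. The weights come from the Gzma counts that the rule used, so these values are arithmetic on that split. The part of cell make-up in the genotype difference was not tested.

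Gzma-negative cells were not uniform. In Tcf7KO 139 had a Gzmb UMI and 34 had none, and in Tcf7WT 411 had one and 282 had none. Tcf7 stood at 27.7 CPM in Gzma-negative Tcf7KO cells with Gzmb and 117 CPM in those without (16.4 to 43.8 and 69.1 to 184), and at 69.3 and 136 CPM in the Tcf7WT cells with and without it (56.3 to 84.4 and 112 to 162). Ccl5 was 17615 CPM with and 8549 CPM without Gzmb in Tcf7KO, and 13028 and 8583 CPM in Tcf7WT. Cd160 was 426 CPM with and 997 CPM without Gzmb in Tcf7KO, and 938 and 1101 CPM in Tcf7WT. The Gzmb-free cells thus had the most Tcf7 in both libraries, though they were also shallower, with medians of 3942 UMIs in Tcf7KO and 2902 UMIs in Tcf7WT, against 4454 and 3378 UMIs for cells with Gzmb. At an equal 1500 UMIs per cell, Gzmb was found in 37.5% of 8 Tcf7-detected and 72.6% of 164 other Gzma-negative Tcf7KO cells, and in 32.5% of 83 Tcf7-detected and 54.3% of 521 other Gzma-negative Tcf7WT cells.

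A split by Thy1 separated other genes in Tcf7WT. The 200 Gzma-negative Tcf7WT cells with a Thy1 UMI had 294 CPM of Ccl4 and the 493 without had 66.2 CPM. Cd74 stood at 131 CPM with and 23.3 CPM without Thy1, Scin at 18.3 and 1.26 CPM, and Ccl5 at 15285 and 9578 CPM. Gzmb stood at 2030.0 CPM with and 2148 CPM without Thy1. In Tcf7KO the class with Thy1 was 24 cells, with 17.2 CPM of Ccl4 (2.08 to 62.0) against 129 CPM (104 to 159) in the 149 without. Splitting by Cd160, the 96 Gzma-negative Tcf7WT cells without it had 3974 CPM of Gzmb and the 597 with it had 1897 CPM, but the cells without it had a median of 2253 UMIs, below the 3320 UMIs of those with it.

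By share of UMIs within a family, receptor variable segments were similar between the classes. They were read sparsely, with any δ variable segment in 21.97% of Gzma-negative and 21.5% of Gzma-positive Tcf7KO cells and in 18.3% and 19.7% of those of Tcf7WT. Of δ variable UMIs, Trdv5 was 57.1% in Gzma-negative and 59.6% in Gzma-positive Tcf7KO cells, and 41.9% and 47.3% in those of Tcf7WT. Trdv2-2 was 26.5% and 24.5% in the same classes of Tcf7KO and 31.1% and 36.4% in those of Tcf7WT. Trdv1 was 11.98% (20 UMIs, 7.47 to 17.9%) in Gzma-negative and 5.68% (15 UMIs, 3.21 to 9.20%) in Gzma-positive Tcf7WT cells. Among γ segments Trgv2 was the most frequent, at 67.7% and 72.7% in Gzma-negative and Gzma-positive Tcf7KO cells and 61.8% and 65.4% in those of Tcf7WT, followed by Tcrg-V1 at 15.0% and 13.5% in Tcf7KO and 24.2% and 21.7% in Tcf7WT. Intervals of the classes overlapped for Trdv5, Trdv2-2, Trdv1, Trgv2 and Tcrg-V1 within each library. Segments of a family are similar in sequence and a 3′ count often misses them, so single shares are uncertain.

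**Figure D5:**
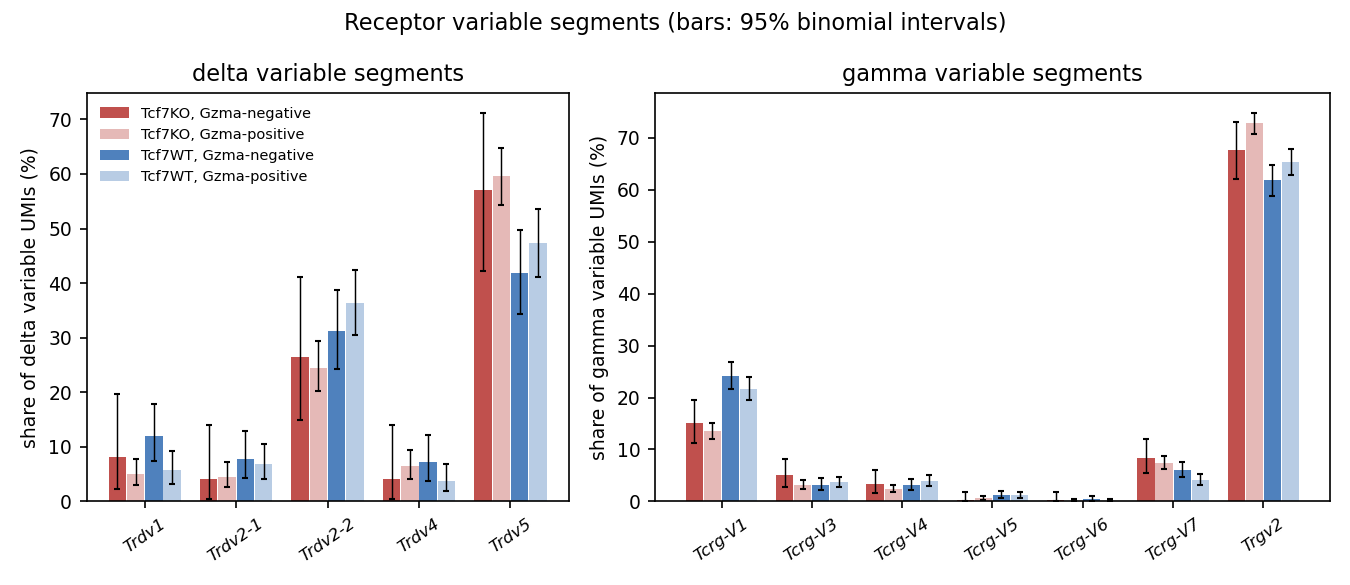
Share of δ and γ variable-segment UMIs (y axes, percent of the family) for Gzma-negative and Gzma-positive cells of Tcf7KO and Tcf7WT, with exact binomial intervals. Trdv5 and Trgv2 are the most frequent segments in all 4 classes, and Gzma-negative and Gzma-positive cells of a library have close shares.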

How the data were processed

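UMI counts per gene and cell were used as deposited by the authors, with 1 matrix for each library. The 2 TCRγδ matrices list 13677 genes in Tcf7KO and 13331 in Tcf7WT, 12919 of them in both, and 0 mitochondrial or ribosomal symbols, so some genes were removed upstream by a rule not given in the sources used here. GRCm38 and mm10 as builds and Seurat 3.0.0 are named per the submitters' processing notes, and the aligner is not given in the sources used here. Of 14089 symbols, 97.9% were found in GENCODE M21.

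Counts were summed over the cells of each class and library and given as CPM of the class total. A gene was measured where its pooled level gave 30 or more UMIs in the smaller class (and, between genotypes, where both libraries listed it), and called at 1.5-fold. Levels have exact Poisson intervals, shares exact binomial (Clopper-Pearson) and ratios exact conditional intervals, all at 95% and covering counting error only. A count of 0 was given a floor of 3 UMIs over the class. Groups were taken from the genotype label, with 1 library each, so no test was run. The members and the 30 gene lists and 9 marker lists were chosen with earlier results of these data known. Named genes had 50 CPM or more in the higher class and were the 12 highest and 12 lowest ratios between classes in Tcf7WT, 8 and 8 in Tcf7KO, 12 and 12 between genotypes in Gzma-negative cells, and up to 4 per list. Receptor segments, sex-linked and unnamed genes, the genes of the rule and genes 5-fold higher in left-out epithelial cells were kept out of that ranking. A gene named outside it was chosen after its values were seen.

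Scrublet in scanpy 1.11.5, at a score threshold of 0.25 set after seeing the data, marked 80 of 1511 Tcf7KO cells (11 Gzma-negative, 69 Gzma-positive) and 30 of 1888 Tcf7WT cells (17 and 13). These were kept, and left out as an alternative. On simulated counts for Tcf7KO against Tcf7WT in Gzma-negative cells, 95.9% of 49 genes set 2-fold lower, 98.0% of 50 set 2-fold higher and 1.53% of 4574 unchanged genes passed 1.5-fold. These counts were drawn with Poisson error alone. Spread between cells, mice or libraries is therefore not covered, and the observed shares cannot be judged against them. Python 3.11.15, numpy 2.4.6, scipy 1.17.1 and pandas 2.3.3 were used, with R 4.3.3, edgeR 4.0.16 and DESeq2 1.42.0 for other scalings only. Alternatives covered the Gzma, Trdc and epithelial limits, depth, doublets, scaling, the UMI minimum and the fold. A few genes that the naming rule or the marker lists hold are not reported here.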

Additional observations from a re-analysis of the deposited data

Results flagged for a closer look

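Among the genes taken by the naming rule, 5 had Gzma-negative to Gzma-positive log2 ratios on opposite sides of zero in the Tcf7KO and Tcf7WT libraries, each at least 0.3 from zero. Many genes outside that rule also differed in sign: of 4567 genes measured in both libraries, 61.7% shared theirs, counted without a minimum distance from zero. The share of all genes that differ at this distance was not computed, so whether 5 is unusual cannot be said. The difference was not tested, since each genotype is 1 library. Thy1 had a log2 ratio of 0.82 in Tcf7KO and -0.48 in Tcf7WT. Lat, an adaptor of TCR signalling, had 0.99 in Tcf7KO and -0.53 in Tcf7WT. Dusp2, a phosphatase that acts on MAP kinases, had 0.64 in Tcf7KO, where a single Gzma-negative cell held 15 of 77 UMIs, and -1.12 in Tcf7WT. Ctla4, an inhibitory receptor, had 0.48 in Tcf7KO and -1.01 in Tcf7WT. Bcl2l11, the gene of the death factor BIM, had -0.32 in Tcf7KO and 0.36 in Tcf7WT.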

How the results depend on the processing

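The shares of Gzma-negative cells were recomputed under the other settings that could change them, one at a time. So were gene counts, ratios of named genes and list medians, between classes and between genotypes in Gzma-negative cells. Genotype ratios in Gzma-positive cells, Gzma bins, splits of the class, receptor segments, weighted ratios and the correlation between libraries were not recomputed. No paired analysis was possible because each group is 1 library and all replicate numbers are 1. Counting cells with at most 1 Gzma UMI as negative gave shares of 16.21% in Tcf7KO and 44.15% in Tcf7WT, at most 2 UMIs gave 18.0% and 45.5%, and thinning to 1500 UMIs before the rule gave 16.4% and 42.3%. Genes 1.5-fold apart between classes in Tcf7KO (165) were 79 after thinning, 109 in cells of 2000 to 6000 UMIs, 20 with a 100-UMI minimum, 4187 with none and 21 at 2-fold. In Tcf7WT (508) they were 160 with the 100-UMI minimum, 3318 with none and 130 at 2-fold. Between genotypes in Gzma-negative cells (263) they were 149 after thinning, 38 with the 100-UMI minimum, 3844 with none and 37 at 2-fold. The 100-UMI minimum reads fewer genes, no minimum reads more of them, and 2-fold is stricter, by construction. For thinning and the depth window the cause was not tested.

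Some log2 ratios changed sign, and the cause was not tested. For Gzma-negative against Gzma-positive Tcf7KO cells, thinning gave -0.53 for Dusp2, -0.14 for Mcm5, -0.0077 for the Wnt list median and -0.047 for that of the cell cycle. Mcm5 was also -0.17 in cells of 500 to 3500 genes and -0.33 in cells of 2000 to 6000 UMIs, Stmn1 was -0.42 with epithelial UMIs under 3, and the interferon median was 0.0024 at most 1 Gzma UMI. In Tcf7WT the type 17 median was 0.033 at most 2 Gzma UMIs and 0.029 in cells of 2000 to 6000 UMIs, where the BCL-2 median was 0.070. Without cells with Mki67 or Top2a, a setting chosen after seeing the data as was counting only 6 or more Gzma UMIs as positive, Stmn1 was -0.91 and the cell cycle median -0.11 in Tcf7WT. Between genotypes in Gzma-negative cells, thinning gave -0.11 for Dusp2 and medians of 0.032 for interferon, -0.019 for the cell cycle and -0.064 for BCL-2. Cells of 2000 to 6000 UMIs gave -0.10 for Mcm5 and -0.0021 for the NK-type median, which was -0.0059 at most 2 Gzma UMIs, and the quiescence median was 0.0031 at most 1 Gzma UMI. Of single-gene values recomputed under the other settings, 5134 stayed within the counting interval of the main value, 271 fell outside it and 8 changed sign. These intervals are wide for genes with few UMIs, so a value within its interval can still have moved far. A sign change was counted only where the main ratio was 1.5-fold or more. Smaller ratios that changed sign are among the other counts. The 173 Gzma-negative Tcf7KO cells limit what could be measured.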
